A study of Homo sapiens with 8 samples.

Results

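The genes described here encode the enzymes and transporters of glycolysis after the hexokinase step, of lactate production and export, of the pentose phosphate pathway and of glycogen and glucose 1-phosphate metabolism. They were chosen by gene symbol from a list of 33 names, and 32 of the 33 were found among the 21077 rows of the deposited table. A total of 31 passed the filter on low signal and were tested. ALDOC was found and not tested because it was near 0, and PGLS was not found by its symbol. All libraries came from Hs578T, an established line of breast cancer cells that does not carry the estrogen receptor. The control cells received 5 mM glucose (low glucose) and the others 25 mM glucose (high glucose, to mimic hyperglycemia) over 48 hours, and 4 RNA-Seq libraries were made of each group. The study describes its glucose experiments as done without serum after all cells had first been held in low glucose. Whether mannitol was added to the low glucose medium of these libraries, to match its osmolarity, was not given in the sources used here. Nothing in the labels tells whether the 4 replicates of a group were separate experiments, so p values measure a spread that may be technical.

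Glycolysis splits glucose into pyruvate and yields ATP and NADH, and lactate dehydrogenase turns pyruvate into lactate to regain NAD+. The pentose phosphate pathway branches off at glucose 6-phosphate, makes NADPH in its oxidative arm and ribose 5-phosphate for nucleotides, and returns sugars to glycolysis through transketolase and transaldolase. Glycogen is built from UDP-glucose and is broken down by glycogen phosphorylase to glucose 1-phosphate, which phosphoglucomutase joins to the same hexose phosphates. Tumor cells are known for high glycolytic flux and lactate release.

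The 8 libraries held an estimated 10244900 to 11956677 counts each, so that 1 count was worth 0.0867 to 0.118 CPM (counts scaled to the size of the library). Values are the deposited normalized signal, read as TMM-scaled CPM, and are given as mean ± SD with n = 4 per group. Fold changes are differences of log2(CPM + 1), high minus low glucose, with the standard error (SE) and the adjusted p of limma, Benjamini-Hochberg adjusted over all 15570 genes tested. Genes with an adjusted p under 0.05 were called. Among cell identity markers, all 6 mesenchymal genes were above 5 CPM, with a summed signal of 53860 to 58001 in low and 32084 to 33299 CPM in high glucose. FN1 alone held 41004 to 44820 CPM of this sum in low and 24425 to 25421 CPM in high glucose. All 6 were lower in every high glucose library, SPARC by the smallest share (3686 to 3840 in low and 3323 to 3470 CPM in high glucose). EPCAM was at 0 in every library, ESR1 and PGR did not exceed 0.27 CPM, and 2 of 7 epithelial markers (KRT8 and KRT18) were above 5 CPM. CD68 accounted for nearly all signal of the immune list (179.7 to 188.6 in low and 91.9 to 96.6 CPM in high glucose), and the leukocyte gene PTPRC reached 1.08 CPM. Of the endothelial markers CDH5 was at 0, while PECAM1 (1.63 to 2.44 CPM in low and 4.91 to 6.21 CPM in high glucose), VWF (at most 0.332 CPM in low and 1.30 to 1.82 CPM in high glucose) and KDR (at most 0.325 CPM in low and 0.63 to 0.902 CPM in high glucose) were at low levels. The epithelial list summed to 276.2 to 293.4 CPM in low and 110.8 to 128.6 CPM in high glucose, and the endothelial list to 2.12 to 2.77 CPM and 7.12 to 8.58 CPM. These 4 sums moved with the glucose group, the endothelial one upward and the others downward, and their part in the differences below was not tested. Bulk RNA cannot tell apart fewer cells of a kind and less RNA per cell. Mitochondrially encoded genes took 0.969% to 1.06% of the signal in low and 1.67% to 1.95% in high glucose.

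Genes of one and the same pathway moved in opposite directions. Of the 31 genes tested, 24 were called (77.4%), of which 17 were lower and 7 higher in high glucose, and 7 were not called. Over all genes tested, 72.9% were called, 37.2% lower and 35.7% higher. The enzyme genes tested all averaged more than 5 CPM, and of the 10919 genes at or above that level 81.6% were called (5020 lower and 3893 higher, median log2 fold change -0.10), a share above that of the enzyme genes. The 24 called genes were also those whose 4 low and 4 high glucose libraries did not overlap, against 66.7% of all genes (34.5% lower and 32.2% higher). As deposited, at least a 2-fold difference was reached by 4 of the 31, PYGB, TKT, PFKP and RPIA, all lower in high glucose. This set depended on the scaling of the libraries. With every library set to the same column total, RPIA (-0.79) fell short, and PRPS1 (1.1) and PGK1 (1.01) passed a 2-fold rise. With quantile normalization RPIA (-0.95) fell short and LDHA (1.1) passed a 2-fold rise. Among all genes, 17.1% were called with at least a 2-fold difference, 8.48% lower and 8.57% higher. The median log2 fold change of the group was -0.14, beside 0.00 for all genes. Its median size without sign was 0.51, beside 0.48 for all genes and 0.52 for those averaging at least 5 CPM. The median coefficient of variation of the enzyme genes was 3.82% in low and 5.80% in high glucose, against 6.03% and 6.54% for the genes that averaged at least 5 CPM. The 2 sets were not matched for level, and many enzyme genes lay far above that limit.

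**Figure D1:**
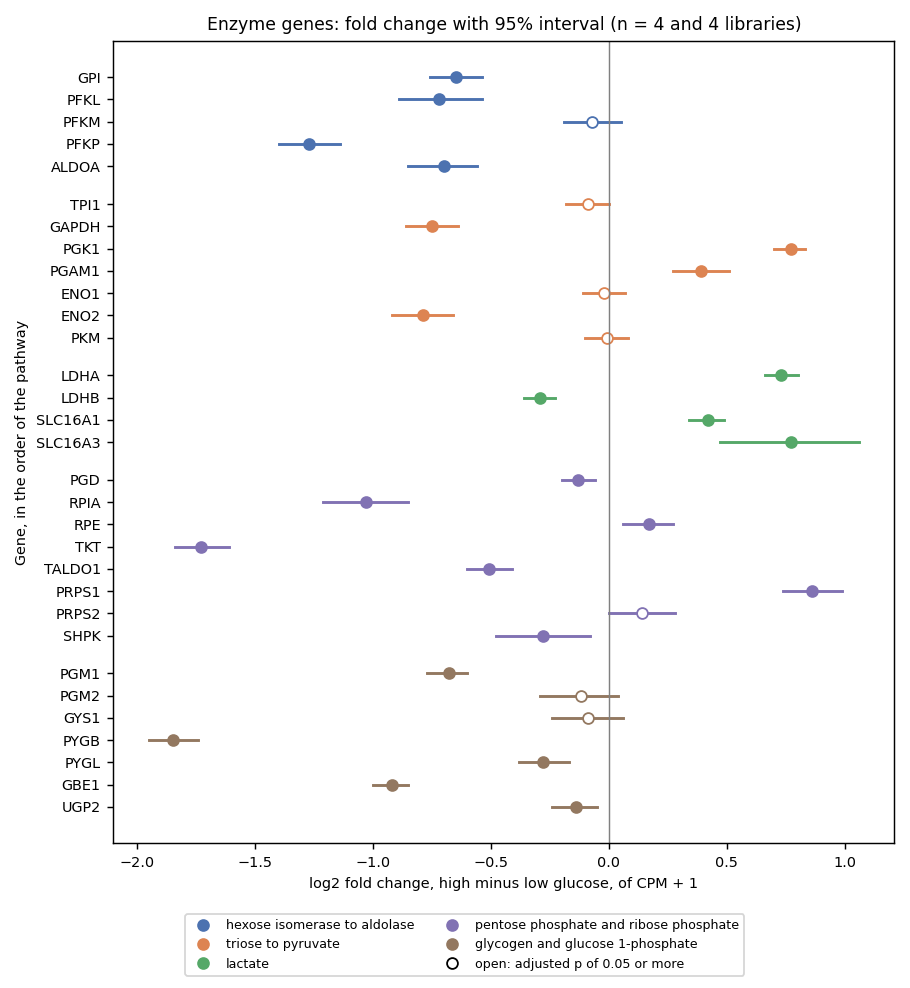
Log2 fold change (high minus low glucose, of CPM + 1) on the horizontal axis for the 31 tested genes, listed in pathway order on the vertical axis and colored by step, with bars for the 95% interval and open circles for genes with an adjusted p of 0.05 or more (4 libraries per group). The isomerase to aldolase genes lie at or left of 0, down to -1.27 for PFKP, 3 of the 4 lactate genes lie right of 0, and TKT and PYGB lie farthest left at -1.73 and -1.85.

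The start sites of 4 of these genes are shown. LDHA and PGK1 were taken as abundant genes with more signal in high glucose, and TKT and PYGB as those with the largest drops. They do not stand for all genes that rose, since the windows of PRPS1 and SLC16A3, which rose as much or more, held no ACGTG or GCGTG. Each line is the 250 bases before the first RefSeq start of the gene on GRCh38.p14, written 5′ to 3′ on the strand of the gene. Capitals mark ACGTG and GCGTG, the core of the hypoxia response element bound by HIF, on either strand, so that CACGT and CACGC are the same letters read on the other strand.
LDHA, chr11:18394313-18394562 (+ strand): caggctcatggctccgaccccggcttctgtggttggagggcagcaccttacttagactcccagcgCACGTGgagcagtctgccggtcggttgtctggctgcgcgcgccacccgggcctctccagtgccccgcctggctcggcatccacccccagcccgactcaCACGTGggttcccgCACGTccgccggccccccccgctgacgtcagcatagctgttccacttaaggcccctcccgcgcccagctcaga
PGK1, chrX:78103998-78104247 (+ strand): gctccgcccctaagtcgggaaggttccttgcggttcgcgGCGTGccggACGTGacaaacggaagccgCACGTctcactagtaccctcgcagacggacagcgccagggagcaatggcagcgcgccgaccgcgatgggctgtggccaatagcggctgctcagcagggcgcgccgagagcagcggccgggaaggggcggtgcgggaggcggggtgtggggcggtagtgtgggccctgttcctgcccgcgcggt
TKT, chr3:53256023-53256272 (- strand): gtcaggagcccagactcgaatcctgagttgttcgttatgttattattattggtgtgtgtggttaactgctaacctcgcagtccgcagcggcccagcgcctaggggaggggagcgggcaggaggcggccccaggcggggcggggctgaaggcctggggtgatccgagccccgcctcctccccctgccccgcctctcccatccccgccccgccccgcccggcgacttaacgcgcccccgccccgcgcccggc
PYGB, chr20:25247835-25248084 (+ strand): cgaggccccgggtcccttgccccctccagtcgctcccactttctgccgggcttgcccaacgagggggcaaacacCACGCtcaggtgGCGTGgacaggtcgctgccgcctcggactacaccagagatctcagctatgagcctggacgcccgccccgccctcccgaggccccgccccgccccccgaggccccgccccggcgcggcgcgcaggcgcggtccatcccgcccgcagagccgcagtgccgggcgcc

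The LDHA window held 5 matches to ACGTG, 4 of them from 2 copies of the palindrome CACGTG, which is the E-box bound by MYC and related factors and contains ACGTG on both strands. PGK1 held 2 ACGTG, 1 GCGTG and 1 CCAAT, PYGB held 2 GCGTG, and the TKT window held 1 CCAAT and no ACGTG or GCGTG. Windows were given for 32 of the 33 listed genes, SLC16A1 being the one without. ACGTG was found in 11 of the 32 windows (34.4%), beside 18.7% of the 27305 promoters in the RefSeq table. By direction it was found in 2 of 6 windows of genes called higher, 7 of 17 called lower and 1 of 7 not called. Besides LDHA and PGK1, the carriers among called genes were all lower in high glucose: GPI, ALDOA, GAPDH, ENO2, PGD, GBE1 and UGP2. GCGTG was found in 13 windows (40.6%, beside 31.9%), CACGTG in 4 (12.5%, beside 6.49%) and CCAAT in 12 (37.5%, beside 33%). TGATGNAA, a core of the ATF4 composite element, was found in none, beside 3.19% of all promoters. The promoters of the RefSeq table were not matched to these genes for GC content or expression. The difference in shares was not tested.

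The first steps of glycolysis after hexokinase had lower transcript signal in high glucose. Of 5 tested genes, 4 fell and 1 was not called (median log2 fold change -0.70). The share called was 80.0%, beside 72.9% of all genes (37.2% lower, 35.7% higher) and 81.6% of those averaging at least 5 CPM. GPI, which interconverts glucose 6-phosphate and fructose 6-phosphate, measured 286.9, 283.5, 274.0 and 263.3 in low and 191.9, 173.8, 180.0 and 160.2 CPM in high glucose. All 4 high glucose libraries were below the lowest low glucose library, and the fold change was -0.65 (SE 0.05, adjusted p = 1.05e-08).

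Phosphofructokinase, which commits fructose 6-phosphate to glycolysis, has 3 genes, and they did not move alike. PFKP, the platelet-type subunit (chromosome 10, 3067548-3136805), measured 195.0, 216.2, 189.7 and 198.1 in low and 83.8, 86.6, 87.0 and 72.2 CPM in high glucose. The groups were far apart, and the fold change was -1.27 (SE 0.059, adjusted p = 2.8e-11). PFKL, the liver-type subunit, fell from 120.9 ± 8.65 to 73.5 ± 10.1 CPM (-0.72, adjusted p = 1.11e-06). PFKM, the muscle-type subunit, was at 72.5 ± 5.68 and 68.9 ± 3.08 CPM with overlapping libraries, and its difference of -0.07 (95% interval -0.19 to 0.05) was not called. The sum of the 3 genes went from 393.2 ± 15.2 to 224.9 ± 18.8 CPM. Without correction for transcript length, PFKP gave 50.8% ± 0.997 of that sum in low and 36.7% ± 1.26 in high glucose. PFKM gave 18.5% ± 2.02 and 30.8% ± 1.79, and PFKL 30.7% ± 1.04 and 32.6% ± 1.99.

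Aldolase cleaves fructose 1,6-bisphosphate into 2 triose phosphates. ALDOA, its main form outside liver and brain, measured 1165, 1176, 1096 and 1094 in low and 784.8, 764.9, 650.3 and 601.0 CPM in high glucose. Its high glucose libraries were more spread (SD 88.8, against 43.6 CPM), yet all lay below the low ones, and the fold change was -0.70 (SE 0.068, adjusted p = 1.61e-07). ALDOC, the brain form, was at 0 in all 4 low glucose libraries and at 0.18 to 0.891 CPM in high glucose, an estimated 18.6 counts in total. Its high glucose mean of 0.438 CPM was 5.2-fold a floor of 3 counts over the low glucose group (0.0842 CPM). This value leaves out the counting error of the 18.6 counts, so it is not a lower limit. ALDOC passed as higher when genes above 0 in at least 1 library were also tested. It entered that setting only through its high glucose libraries, so the direction was fixed in advance and the pass adds no support.

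From the triose phosphates to pyruvate, steps that follow one another differed in direction. Of 7 tested genes, 2 rose, 2 fell and 3 were not called, with a median of -0.02. The share called, 57.1%, was below the 72.9% of all genes and the 81.6% of those averaging at least 5 CPM. TPI1, which interconverts the triose phosphates, was at 475.8 ± 15.7 in low and 446.7 ± 24.8 CPM in high glucose (-0.09, adjusted p = 0.0581). It passed as lower without low glucose replicate 3 (-0.11), high glucose replicate 1 (-0.12) or high glucose replicate 2 (-0.11). GAPDH, which oxidizes glyceraldehyde 3-phosphate and is often used as a reference gene (chromosome 12, 6534517-6538371), measured 4303, 4171, 4051 and 4109 in low and 2735, 2590.0, 2352 and 2253 CPM in high glucose. Every high glucose library held less than any low glucose library, at a mean ratio of 0.597, and the fold change was -0.75 (SE 0.0525, adjusted p = 3.5e-09).

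PGK1, the next enzyme and the first of the pathway to yield ATP, went the other way. Its libraries were among the tightest of the group, at 278.2, 272.5, 269.6 and 271.7 in low and 467.4, 464.8, 465.1 and 462.3 CPM in high glucose (0.77, SE 0.0306, adjusted p = 4.98e-12). The ratio of PGK1 to GAPDH signal within a library was 0.0657 ± 0.000842 in low and 0.188 ± 0.0159 in high glucose. This pair was picked after its values were seen and was not tested. PGAM1, the phosphoglycerate mutase, rose from 186.7 ± 10.4 to 245.3 ± 19.4 CPM (0.39, SE 0.0549, adjusted p = 1.06e-05).

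The last steps to pyruvate held the most abundant genes with no call. ENO1, the main enolase, measured 2559, 2429, 2418 and 2416 in low and 2598, 2456, 2358 and 2271 CPM in high glucose. The groups overlapped, with a difference of -0.02 (95% interval -0.11 to 0.07, adjusted p = 0.649). PKM, the pyruvate kinase of most tissues and tumors, was at 2797 ± 104.6 and 2780 ± 137.3 CPM, a difference of -0.01 (95% interval -0.10 to 0.08, adjusted p = 0.843). Gene-level signal does not separate the PKM1 and PKM2 splice forms. ENO2, the neuronal enolase, measured 50.4, 50.6, 50.2 and 51.2 in low and 31.8, 27.9, 27.7 and 28.1 CPM in high glucose. The groups were well apart, and ENO2 fell by 0.79 on the log2 scale (SE 0.0593, adjusted p = 7.73e-09).

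ENO1 and PKM are also genes whose direction depended on how libraries were scaled. TMM scaling, which the deposited values carry, centers the fold changes near 0, whereas setting every library to the same column total moved the median of all genes by 0.20 on the log2 scale. With the same column total ENO1 was higher by 0.22 and PKM by 0.24, close to that shift, TPI1 by 0.15 and PFKM by 0.17, and all 4 passed as higher. Quantile normalization also gave higher values for ENO1 (0.31), PKM (0.41) and TPI1 (0.14), which passed, and 0.014 for PFKM, which did not. Median-of-ratios factors gave 0.017 for ENO1 and 0.029 for PKM, and neither passed.

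Genes of lactate metabolism were, with 1 exception, higher in high glucose. Of 4 tested genes, 3 rose and 1 fell, with a median of 0.57. Over all genes 35.7% were called higher and 37.2% lower, and 81.6% of those averaging at least 5 CPM were called. LDHA, whose subunit favors the reduction of pyruvate to lactate (chromosome 11, 18394563-18408425), measured 1455, 1388, 1452 and 1452 in low and 2361, 2332, 2402 and 2418 CPM in high glucose (0.73, SE 0.0322, adjusted p = 1.59e-11). LDHB, whose subunit favors the reverse reaction, measured 471.2, 455.0, 471.6 and 471.8 in low and 386.4, 377.6, 379.2 and 383.5 CPM in high glucose. For both genes the groups were separate, and LDHB fell by 0.29 on the log2 scale (SE 0.031, adjusted p = 4.63e-07), although with the same column total it was at -0.047 and did not pass. The ratio of LDHB to LDHA within a library is the same for any single scaling factor of that library, but not under quantile normalization, which gave -0.11 for LDHB and 1.10 for LDHA. As deposited it was 0.324, 0.328, 0.325 and 0.325 in low and 0.164, 0.162, 0.158 and 0.159 in high glucose. The share of LDHA in the sum of both, in CPM without correction for transcript length, went from 75.4% ± 0.0966 to 86.2% ± 0.204.

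Lactate leaves cells through the monocarboxylate transporters MCT1 and MCT4, which are encoded by SLC16A1 and SLC16A3. SLC16A1 measured 165.9, 160.0, 158.8 and 162.6 in low and 222.7, 210.3, 215.8 and 216.2 CPM in high glucose. The groups were separate, and SLC16A1 rose by 0.42 (SE 0.0354, adjusted p = 3.46e-08). SLC16A3 was lower and more variable, at 13.4, 20.2, 13.2 and 15.8 in low and 29.3, 31.8, 27.5 and 20.5 CPM in high glucose. Its groups were separated by a narrow gap, between low glucose replicate 2 and high glucose replicate 4, and the fold change was 0.77 (SE 0.138, adjusted p = 0.000125). Of the proteins that carry these transporters to the membrane, BSG (basigin) fell by 0.46 on the log2 scale (adjusted p = 5.79e-06) and EMB (embigin) rose by 0.50 (adjusted p = 1.41e-06).

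**Figure D2:**
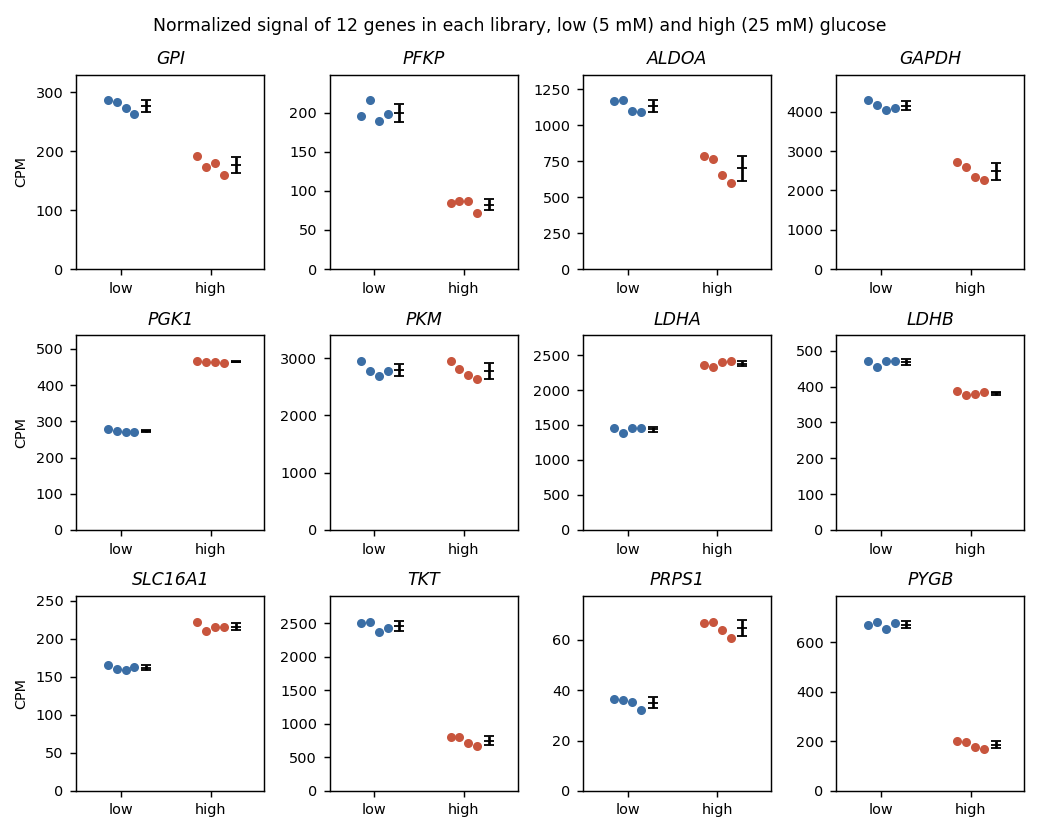
Normalized signal in CPM (vertical axis, from 0) of 12 of the genes in each of the 4 low glucose libraries (blue) and 4 high glucose libraries (red), with mean and SD in black. The points of PKM overlap between groups, those of PGK1, LDHA, SLC16A1 and PRPS1 are higher in all 4 high glucose libraries, and those of the remaining 7 genes are lower, as far as 186.4 from 672.0 CPM for PYGB.

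In the pentose phosphate pathway and the ribose phosphate steps that follow it, 5 of 8 tested genes fell, 2 rose and 1 was not called, with a median of -0.20. The share called was 87.5%, beside 72.9% of all genes (37.2% lower, 35.7% higher) and 81.6% of those averaging at least 5 CPM. PGD, which oxidizes 6-phosphogluconate in the oxidative arm, was at 223.0 ± 4.84 in low and 203.5 ± 3.74 CPM in high glucose. The difference of -0.13 was called (SE 0.0344, adjusted p = 0.003), but PGD was at 0.11 with the same column total, where it passed as higher, and at -0.025 with quantile normalization, where it did not pass. PGLS, the lactonase of the oxidative arm, was not found under its symbol. The row with its Ensembl identifier carries the symbol AC010618.1, and it fell from 50.3 ± 6.01 to 20.8 ± 1.43 CPM (-1.23, SE 0.081, adjusted p = 1.69e-09). It is not counted among the 31.

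In the non-oxidative arm, RPIA, TKT and TALDO1 fell and RPE rose. RPIA, which makes ribose 5-phosphate, measured 26.2, 23.6, 23.1 and 25.4 in low and 12.3, 10.4, 11.4 and 12.2 CPM in high glucose (-1.03, SE 0.0842). RPE, which acts on the same substrate and makes xylulose 5-phosphate, rose by 0.17 (SE 0.0499, adjusted p = 0.00743), from 56.3 ± 1.77 to 63.3 ± 2.84 CPM. TKT, the transketolase that moves 2-carbon units between sugar phosphates (chromosome 3, 53224712-53256022), measured 2510, 2527, 2380 and 2430.0 in low and 806.2, 796.0, 711.3 and 666.5 CPM in high glucose (-1.73, SE 0.0527, adjusted p = 2.65e-13). TALDO1, the transaldolase that works beside it, measured 213.4, 224.8, 217.6 and 211.2 in low and 157.3, 161.1, 152.0 and 139.2 CPM in high glucose (-0.51, SE 0.0456). Both genes were lower in every high glucose library, and the ratio of TKT to TALDO1 signal went from 11.4 ± 0.353 to 4.88 ± 0.193. This ratio, too, was picked after its values were seen and was not tested. SHPK, a kinase that makes sedoheptulose 7-phosphate, was at 14.8 ± 1.13 and 12.1 ± 0.95 CPM and fell by 0.28 on the log2 scale (adjusted p = 0.0147). It did not pass without high glucose replicate 1 (-0.23, adjusted p = 0.0505) or with the same column total (-0.05).

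PRPS1 and PRPS2 encode the synthetases that turn ribose 5-phosphate into PRPP, the start of nucleotide synthesis. PRPS1 measured 36.7, 36.1, 35.5 and 32.0 in low and 66.9, 67.3, 63.8 and 60.6 CPM in high glucose (0.86, SE 0.0591, adjusted p = 2.57e-09). It was higher in every high glucose library, and no other tested member had a larger positive fold change. PRPS2 was at 33.7 ± 1.29 and 37.4 ± 3.14 CPM with overlapping libraries (0.14, adjusted p = 0.0735). PRPS2 passed as higher with the same column total (0.38), median-of-ratios factors (0.18) or quantile normalization (0.24), and without high glucose replicate 3 (0.19).

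Genes for glycogen and glucose 1-phosphate fell or were not called. Of 7 tested genes, 5 fell and 2 were not called (median log2 fold change -0.28). The share called was 71.4%, beside 72.9% of all genes (37.2% lower, 35.7% higher) and 81.6% of those averaging at least 5 CPM. PYGB, the brain form of glycogen phosphorylase (chromosome 20, 25248085-25298012), had the largest drop of all 31 genes, from 670.3, 683.6, 654.2 and 679.7 CPM in low to 199.6, 198.8, 176.7 and 170.3 CPM in high glucose. The groups were far apart, and the fold change was -1.85 (SE 0.0486, adjusted p = 5.48e-14). PYGL, the liver form, measured 119.1, 102.3, 109.5 and 112.4 in low and 88.4, 91.0, 94.3 and 91.2 CPM in high glucose (-0.28, SE 0.0485, adjusted p = 0.000101). PYGL did not pass with the same column total (-0.034). The sum of both phosphorylases went from 782.8 ± 12.9 to 277.6 ± 13.7 CPM.

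On the side of synthesis, GBE1, the glycogen branching enzyme, measured 341.4, 343.6, 367.4 and 357.8 in low and 183.0, 188.8, 187.6 and 181.8 CPM in high glucose. All 4 high glucose libraries lay close together and well below the low ones, and the fold change was -0.92 (SE 0.0359, adjusted p = 3.66e-12). GYS1, the glycogen synthase of muscle and most other tissues, was at 67.6 ± 5.37 and 63.6 ± 5.75 CPM (-0.09, 95% interval -0.24 to 0.06), and was not called. UGP2, which makes UDP-glucose, fell by 0.14 on the log2 scale (adjusted p = 0.00975), with a gap of less than 1 CPM between the groups (134.3 CPM in the lowest low and 134.0 CPM in the highest high glucose library). UGP2 did not pass under 3 other scalings (-0.10 with median-of-ratios factors, -0.042 with quantile normalization and 0.10 with the same column total). PGM1, the main phosphoglucomutase, fell from 187.3 ± 8.2 to 116.2 ± 1.69 CPM (-0.68, SE 0.04, adjusted p = 4.06e-10). PGM2, a related phosphopentomutase, was at 25.3 ± 2.21 and 23.1 ± 1.31 CPM and was not called (-0.12, 95% interval -0.29 to 0.04). With the same column total PGM2 (0.11) and GYS1 (0.15) were in the other direction, and GYS1 passed as higher.

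Where 2 genes encode the same step, or related steps as PGM2 and PGM1 do, their ratio within a library does not move with a scaling factor. It can move with quantile normalization. These ratios are of CPM without correction for length, so that only their change between groups is read. Of 9 pairs listed, 8 could be tested, since ALDOC was at 0 in low glucose, and 7 differed in 2-sided exact permutation tests over the 70 arrangements of the libraries. Each of the 7 had separate groups and p = 0.0286, the smallest that exact tests of 4 against 4 can give, and an adjusted p of 0.0327 over the 8 pairs. The pairs had been listed with the fold changes of their genes known. The ratio of PYGL to PYGB went from 0.165 ± 0.0116 to 0.493 ± 0.0491, a 2.98-fold rise. PFKM to PFKP went from 0.365 ± 0.0463 to 0.84 ± 0.0596 and PFKL to PFKP from 0.605 ± 0.00929 to 0.89 ± 0.0741. PGM2 to PGM1 went from 0.135 ± 0.0148 to 0.199 ± 0.0137. LDHB to LDHA fell by 1.02, ENO2 to ENO1 by 0.79 and PRPS2 to PRPS1 by 0.74 on the log2 scale. The ratio of SLC16A3 to SLC16A1 was 0.0968 ± 0.0208 in low and 0.126 ± 0.0234 in high glucose, with overlapping groups (exact permutation p = 0.114, adjusted p = 0.114).

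**Figure D3:**
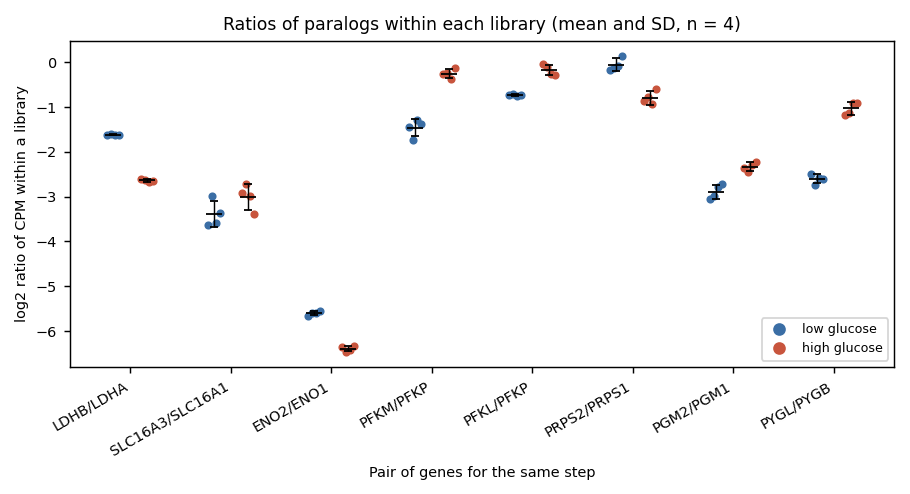
Log2 ratio of the CPM of 2 genes for the same or a related step within each library (vertical axis) for the 8 pairs tested (horizontal axis), in 4 low glucose (blue) and 4 high glucose (red) libraries, with mean and SD in black. The groups are separate for 7 pairs and overlap for SLC16A3/SLC16A1, and the largest shift is that of PYGL/PYGB, by 1.57.

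The order of the genes by level changed with glucose. Per kilobase of the canonical transcript, GAPDH was highest in both groups, with 3236 ± 84.0 CPM per kb in low and 1932 ± 171.1 in high glucose. ENO1 (1379 ± 38.9 and 1359 ± 78.8) and PKM (1214 ± 45.4 and 1206 ± 59.6) came next in both. TKT ranked 4 in low glucose with 821.6 ± 23.1 CPM per kb and 8 in high glucose with 248.7 ± 22.5, whereas LDHA went from rank 6 (641.0 ± 14.5) to rank 4 (1061 ± 17.5). In low glucose, ALDOA (690.6 ± 26.6) was above its neighbor LDHA by more than either SD, whereas LDHB (358.7 ± 6.37) and TPI1 (352.2 ± 11.6) were within their spread of each other. PYGB moved from rank 10 to 17, and PGK1, with a canonical transcript of 4812 bases, from 18 to 11. Ranks depend on these lengths, and whether the canonical transcripts were those expressed was not tested. Per length, LDHA was below GAPDH in both groups, and their CPM ratio, picked after its values were seen, went from 0.346 ± 0.0122 to 0.965 ± 0.0991. All 32 genes together summed to 18502 to 19463 in low and 14263 to 15898 CPM in high glucose, which was 1.56% ± 0.0238 and 1.47% ± 0.0585 of the column total.

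Within the groups, libraries ranked alike for many of the enzyme genes. High glucose replicate 4 was the lowest of its group for 21 of the 31 genes (67.7%, beside 30.4% of all genes tested), and replicate 1 was the highest for 15 (48.4%, beside 26.0%). In low glucose, replicate 1 was the highest for 16 (51.6%, beside 24.6%). LDHA did not share this order, being highest in high glucose replicate 4 (2418 CPM), where GAPDH was lowest (2253 CPM). Without high glucose replicate 4, 24 of the 31 genes were called, and without high glucose replicate 1 also 24. Mitochondrially encoded signal was highest in high glucose replicate 4 (1.95%) and its part in these shifts was not tested.

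**Figure D4:**
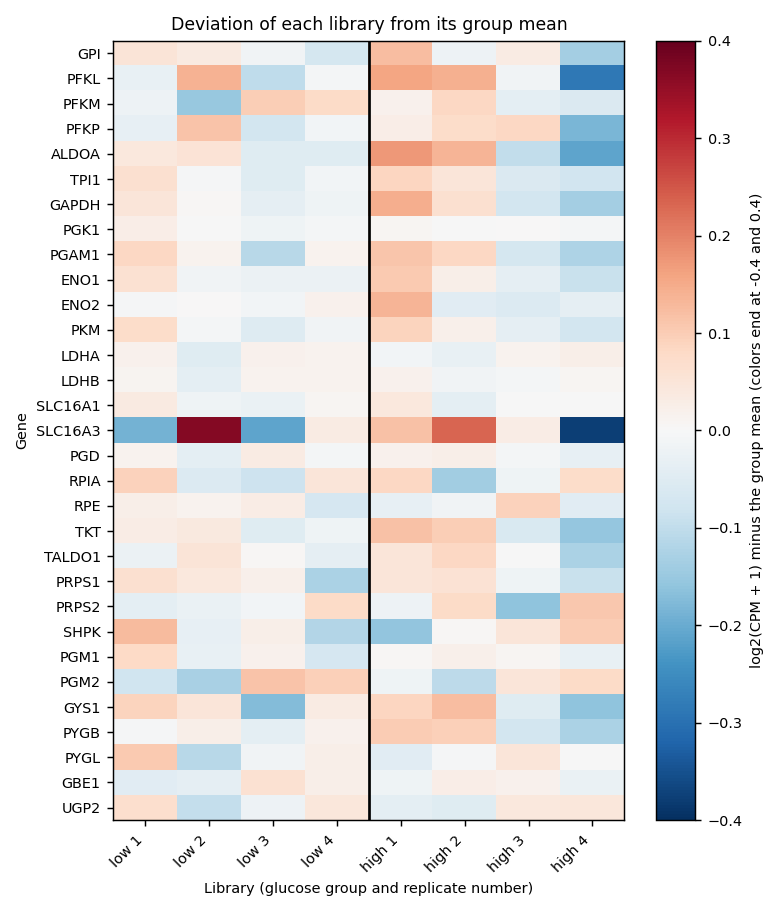
Deviation of log2(CPM + 1) from the group mean (color, in log2 units, red above and blue below, with the scale ending at -0.4 and 0.4) for the 31 tested genes (rows) in the 8 libraries (columns, low glucose on the left of the black line). High glucose replicate 4 is blue for most rows, being the lowest of its group for 21 genes, and high glucose replicate 1 is red for most, whereas PGK1, LDHA and LDHB are pale throughout.

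Other genes of these pathways were taken from 4 lists. Of 88 genes listed, 71 were in the table and 62 were tested, of which 16 were higher, 29 lower and 17 not called (72.6% called, beside 72.9% of all genes). In glucose entry and hexose phosphate control, 7 of 17 rose and 8 fell (88.2% called), with a median of 0.09. PFKFB3 and PFKFB4, whose enzymes make and remove the activator of phosphofructokinase, fructose 2,6-bisphosphate, rose from 44.9 ± 2.99 to 91.2 ± 6.22 CPM (1.01, adjusted p = 5.07e-10) and from 15.1 ± 1.66 to 30.4 ± 2.95 CPM (0.96, adjusted p = 1.48e-07). Of the phosphofructokinase genes themselves, PFKP and PFKL fell. PCK2, the mitochondrial enzyme that makes phosphoenolpyruvate, fell from 139.6 ± 6.45 to 44 ± 4.25 CPM (-1.65, adjusted p = 2.88e-12). SLC2A1, the main glucose transporter of many cells, fell from 656.5 ± 21.3 to 282.0 ± 24.5 CPM (-1.22, adjusted p = 1.12e-11), and HK2, a hexokinase, fell from 196.5 ± 7.32 to 94.8 ± 3.33 CPM (-1.04, adjusted p = 5.07e-12). SLC2A10, a further sugar transporter, rose from 39.9 ± 1.61 to 58.2 ± 3.27 CPM (0.53, adjusted p = 4.28e-07).

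Among paralogs and partners of the glycolytic and lactate steps, 4 of 11 rose, 4 fell and 3 were not called (72.7% called, beside 72.9% of all genes). BPGM, which makes 2,3-bisphosphoglycerate, fell from 109.7 ± 6.29 to 44.8 ± 3.02 CPM (-1.27, adjusted p = 2.23e-11), and MINPP1, a phosphatase that can remove that product, rose from 11.1 ± 0.404 to 24.1 ± 1.58 CPM (1.05, adjusted p = 1.08e-08). PGAM5, a mitochondrial protein phosphatase named for its similarity to the mutases, fell by 1.05 on the log2 scale (adjusted p = 2.25e-09). SLC16A4, a further member of the monocarboxylate transporter family, rose by 0.73 (adjusted p = 6.32e-08).

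In the pentose phosphate and ribose list, 2 of 9 rose, 4 fell and 3 were not called (66.7% called, beside 72.9% of all genes). H6PD, which oxidizes hexose 6-phosphate in the endoplasmic reticulum, rose from 41.8 ± 1.78 to 54.0 ± 3.92 CPM (0.36, adjusted p = 6.67e-05). PHGDH, which draws 3-phosphoglycerate into serine synthesis, fell by 1.16 on the log2 scale (adjusted p = 3.14e-12). PRPSAP2, a protein that binds the PRPP synthetases, fell by 0.65 (adjusted p = 1.15e-06), and DERA, an aldolase for deoxyribose phosphate, rose by 0.60 (adjusted p = 0.00013).

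In the glycogen and galactose list, 13 of 25 fell, 3 rose and 9 were not called, with a median of -0.46. The share called, 64.0%, was below the 72.9% of all genes (37.2% lower, 35.7% higher). PPP1R3B, which brings protein phosphatase 1 to glycogen, fell from 236.9 ± 4.13 to 47.6 ± 2.13 CPM (-2.29, adjusted p = 1.72e-15). UGDH, which oxidizes UDP-glucose, fell by 1.27 (adjusted p = 4.14e-14) and GYG1, the glycogenin primer of new glycogen, by 1.05 (adjusted p = 2.23e-10) on the log2 scale. GSK3B, a kinase that inhibits glycogen synthase, rose by 0.52 (adjusted p = 5.75e-09).

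The calls of 19 of the 31 genes held in direction and in passing under all 18 alternatives, among them GPI, PFKP, ALDOA, GAPDH, PGK1, LDHA, SLC16A1, TKT, PRPS1, PYGB and GBE1. With the same column total 14 of the 31 were called higher and 12 lower, and with quantile normalization 11 and 15, against 7 and 17 as deposited, so the balance between directions rests on the scaling. Over all genes the same column total gave 7306 higher and 4337 lower, against 5553 and 5797.

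**Figure D5:**
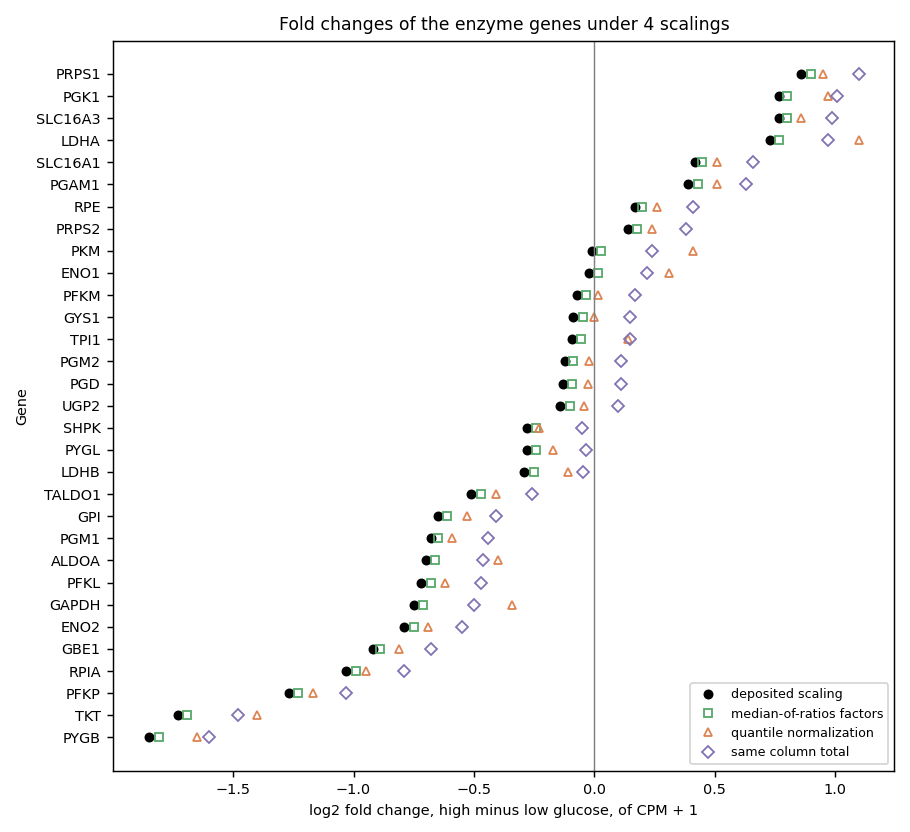
Log2 fold change (high minus low glucose, of CPM + 1, horizontal axis) of the 31 genes (vertical axis) as deposited and under 3 other scalings of the libraries. The same column total moves every gene to the right, and genes near 0 such as PKM (-0.01 as deposited, 0.24 with the same column total) change side, whereas PYGB, TKT and PFKP stay left of -1 and PRPS1, PGK1, SLC16A3 and LDHA stay right of 0.5.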

How the data were processed

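RNA of Hs578T cells, 4 low and 4 high glucose replicates grouped by their treatment label, was sequenced on an Illumina instrument. The authors deposited 1 table of normalized signal for 21077 rows, and the submitters' notes name hg38 and edgeR. The study's methods for related RNA-Seq give CPM with TMM factors, and columns that sum to 1017015 to 1229021 bear the mark of such scaling, so the deposited signal was read as CPM. Those methods name Trimmomatic and TopHat with hg19, a build other than the hg38 of the notes, so that whether TopHat was used for these libraries was not given in the sources used here, nor was the counting program. Below 50 reads, 71.2% to 73.8% of values were whole within 0.005 read and all were multiples of 0.01 read within 0.0005 read, so counts had been estimated in fractions and tests made for counts were not applied. Depth was estimated from the value of 1 read, and the floor from it for ALDOC covers the counting error of the low glucose group alone.

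Genes with 0.5 CPM in at least 2 libraries (15570) were fitted with limma 3.58.1 under R 4.3.3, on log2(CPM + 1), with a variance trend and no covariate, and called at a Benjamini-Hochberg adjusted p under 0.05. The members and all lists were chosen with earlier results of these data known. Named genes were all members and, from each list of other pathway genes, up to 3 called genes per direction with the smallest p and a mean of at least 5 CPM; some genes that met this rule are not reported here. No pair of libraries within a group was alike within sampling noise (chi-square per gene 1.60 to 5.72, against 1). Rows for 13 pseudogenes of 7 members held at most 1.03% of the signal of parent and pseudogene together. Positions and promoters are from RefSeq (GRCh38.p14), by symbol, and transcript lengths from Ensembl canonical transcripts. Alternatives changed the pseudocount, the filter, the scaling, the variance prior, repeated symbols, the replicate block and single replicates.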

Additional observations from a re-analysis of the deposited data

Results flagged for a closer look

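In 5 of 80 groups checked, which are the low and high glucose values of the 32 genes found and the 8 ratios, 1 library stood apart from the other 3. Chance alone gives about 1 in 20 such groups. ENO1 was highest in low glucose replicate 1, at 2559.1 CPM, with the other 3 at 2416 to 2429 CPM. ENO2 was highest in high glucose replicate 1, at 31.8 CPM, with the others at 27.7 to 28.1 CPM. Low glucose replicate 2 was lowest both for LDHA, at 1387.6 CPM beside 1452 to 1455 CPM, and for LDHB, at 455.0 CPM beside 471.2 to 471.8 CPM, and the LDHB to LDHA ratio of that library (0.328) was near the others (0.324 to 0.325). RPE was lowest in low glucose replicate 4, at 53.7 CPM beside 56.9 to 57.5 CPM. None of these libraries overlapped the other glucose group for ENO2, LDHA, LDHB or RPE.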

How the results depend on the processing

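Among 18 alternatives, 19 of 31 genes kept direction and side of the threshold in all. With the same column total 14 genes were called higher, and with quantile normalization 11, against 7 as deposited. Signs changed with the same column total for PFKM (0.17), TPI1 (0.15), ENO1 (0.22), PKM (0.24), PGD (0.11), PGM2 (0.11), GYS1 (0.15) and UGP2 (0.10), with quantile normalization for PFKM (0.014), TPI1 (0.14), ENO1 (0.31) and PKM (0.41), and with median-of-ratios factors for ENO1 (0.017) and PKM (0.029). Both also changed sign when single replicates were left out: PKM 0.015 without low glucose replicate 1, 0.003 without high glucose replicate 3 and 0.015 without replicate 4, and ENO1 0.008 without high glucose replicate 4 (ranges over the 8 libraries -0.039 to 0.015 and -0.057 to 0.008). Setting equal column totals moves all genes by construction, and the cause of the other sign changes was not tested. TPI1 (-0.09 as deposited) passed as lower without low glucose replicate 3 or high glucose replicate 1 or 2 (-0.12 to -0.11). Leaving out 1 library gave 24 to 25 called genes. Equal replicate numbers did not pair the libraries (correlations of deviations -0.0267 to 0.112, 2 of 4 closest to their own number). With a replicate block 25 members and 11494 of all genes were called, TPI1 passing as well (adjusted p = 0.0114), and none of the paired ratios passed (0 of 8), since 4 pairs cannot give a p under 0.125. The values of the 22 named genes from other lists passed in the same direction under all 18 alternatives. Depth limits ALDOC most, at 18.6 estimated counts in all.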
